A study of Mus musculus with 6 samples.

Results

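The genes described here encode 7 receptor chains of the common gamma chain cytokine family: Il2rg, Il2rb, Il2ra, Il15ra, Il4ra, Il7r and Il21r. They were taken from the gene count table by exact gene name, out of 54532 genes listed. All 7 were among the 13480 genes that passed the filter on low counts. Messenger RNA had been sequenced from marrow cells of 2- to 5-month-old female mice of the F1 hybrid CByB6F1. Every mouse had bone marrow failure (BMF), an immune disease model in which T cells attack blood-forming cells. In 3 libraries (pools 1 to 3) the mice had been treated with ruxolitinib, and in 3 control libraries (pools 4 to 6) they were labelled untreated. CD8 microbeads were used to pick the cells, and a library pools 2 to 3 mice of a group. The sources used here do not give the dose, the length of treatment or how the disease was induced.

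Receptors of this family share the gamma chain encoded by Il2rg, which carries the kinase JAK3. Some of the partner chains bind JAK1, and the combination of chains gives each receptor its specificity. Binding of IL-2, IL-4, IL-7, IL-9, IL-15 or IL-21 brings the chains together, the kinases phosphorylate STAT proteins, chiefly STAT5 for IL-2, IL-7 and IL-15, STAT6 for IL-4 and STAT3 for IL-21, and T cell survival, division and memory depend on these signals. Ruxolitinib inhibits JAK1 and JAK2. The comparison of ruxolitinib with control libraries asks how genes of the receptors and their pathway were expressed in diseased mice given this inhibitor.

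The libraries held 13829808 to 17708196 counted reads. The defining genes of CD8 T cells, which the beads were meant to select, were present in all 6 libraries, but at unequal levels. The summed level of 16 such genes (T cell receptor, CD3 and CD8 chains and their signalling partners) came to 1866, 2369 and 5352 CPM for pools 1, 2 and 3 of the treated group and to 10541 to 12802 CPM for the controls. CPM is the usual library-size-scaled count, here with edgeR's TMM factors. Of the 16 genes 15 were called lower (median log2 fold change -1.71), against 25.3% of all genes tested. Ruxolitinib pool 3 thus stood nearest to the controls. Markers of several other marrow cell types were higher. Summed over each list, 9 erythroid genes reached 124504 to 244180.0 CPM against 1862 to 2688 in controls, 12 monocyte and macrophage genes 5847 to 9512 against 947 to 1312, and 11 B cell genes 250.5 to 275 against 14.9 to 17.7, with Ms4a1, Pax5 and Rag1 at 0 in all controls. Of these lists 9 of 9, 12 of 12 and 10 of 11 genes were called higher, against 29.9% of all genes tested. The granulocyte and dendritic cell lists were mixed, with 7 of 10 and 4 of 6 genes called higher and 1 of each, Prtn3 and Xcr1, called lower (-1.04 and -1.23). In such bulk samples fewer cells of a type and less RNA per cell cannot be told apart. Fold changes below are therefore given after TMM scaling and, for receptor and pathway genes whose direction or call differs, also relative to the 16 CD8 T cell genes.

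Promoter windows from 250 bases before to 50 bases after the annotated start (RefSeq, GRCm38.p6) were at hand for 6 of the 7 genes, Il2rb being the exception. They were searched on both strands for 4 motifs: the STAT element TTCNNNGAA, the interferon regulatory factor core AANNGAAA, the RUNX site TGTGGT and the ETS site CCGGAA. These motifs were found in 8.30%, 23.9%, 16.8% and 14.9% of all 32851 windows. The windows of 3 genes are shown because Il2rg and Il15ra fell and Il7r rose after TMM scaling. Capitals mark motif matches, and each window reads 5′ to 3′ on the gene's strand.
Il2rg, chrX:101268206-101268505, minus strand: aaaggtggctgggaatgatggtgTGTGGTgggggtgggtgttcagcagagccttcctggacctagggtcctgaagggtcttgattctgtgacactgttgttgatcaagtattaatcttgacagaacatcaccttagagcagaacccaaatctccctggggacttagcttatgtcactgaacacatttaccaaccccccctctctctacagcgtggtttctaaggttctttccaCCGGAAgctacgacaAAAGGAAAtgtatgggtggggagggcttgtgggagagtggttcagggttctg
Il15ra, the downstream of 2 annotated starts, chr2:11705462-11705761, plus strand: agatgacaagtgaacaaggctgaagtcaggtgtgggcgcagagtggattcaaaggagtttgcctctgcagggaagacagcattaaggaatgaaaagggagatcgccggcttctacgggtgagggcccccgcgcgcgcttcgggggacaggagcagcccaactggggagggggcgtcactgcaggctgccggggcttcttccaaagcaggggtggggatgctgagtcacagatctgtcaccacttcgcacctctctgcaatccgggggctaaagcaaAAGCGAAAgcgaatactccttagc
Il7r, chr15:9529827-9530126, minus strand: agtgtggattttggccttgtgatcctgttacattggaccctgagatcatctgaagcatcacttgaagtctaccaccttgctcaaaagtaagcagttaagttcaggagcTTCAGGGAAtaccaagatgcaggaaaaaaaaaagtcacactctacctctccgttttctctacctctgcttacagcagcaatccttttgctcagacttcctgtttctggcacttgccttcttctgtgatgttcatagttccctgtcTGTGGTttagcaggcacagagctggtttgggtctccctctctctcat

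Among the 6 genes Il7r alone held the STAT element (TTCAGGGAA, beginning 142 bases before the start), together with a RUNX match beginning 4 bases after the start. The Il2rg window held a RUNX match 227 bases, an ETS match 17 bases and an interferon regulatory factor match 2 bases before the start. The Il15ra window shown held an interferon regulatory factor match (AAGCGAAA, beginning 27 bases after the start), and the window of its upstream start held 1 such match and 1 ETS match. Il21r held 1 RUNX match, and none of the 4 motifs was in the windows of Il2ra and Il4ra. A match describes letters in a window and not a bound site.

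Of the 7 receptor genes, 3 were called lower in the ruxolitinib libraries (Il2rg, Il2rb and Il15ra), 1 was called higher (Il7r) and 3 did not pass (Il2ra, Il4ra and Il21r). Among all genes tested 25.3% were called lower, 29.9% higher and 55.2% in either direction, so the share of 4 in 7 is close to the background. The median log2 fold change of the 7 genes was -0.42 against 0.03 over all genes. All 3 ruxolitinib libraries lay below all 3 controls for 3 of the genes and above them for 2, which happened for 30.3% and 35.7% of all genes. Relative to the CD8 T cell genes none of the 7 was lower and 4 were higher, where 0.445% and 71.0% of all genes were.

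**Figure D1:**
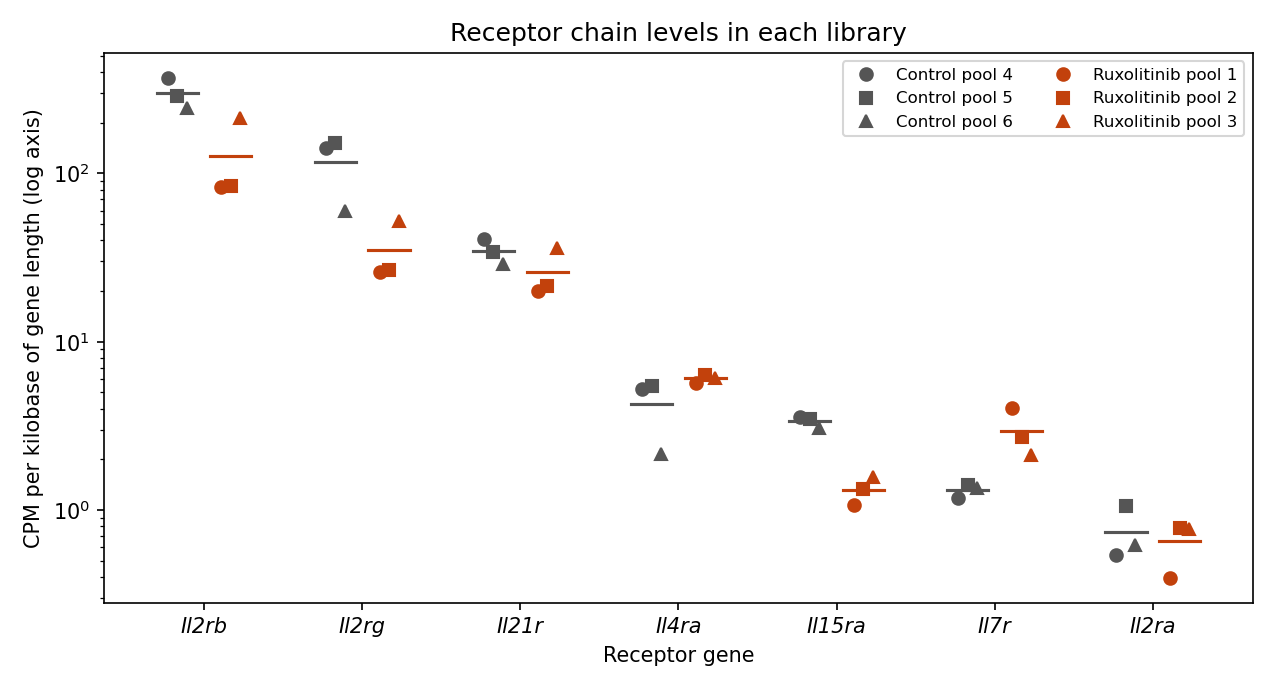
Level of each receptor gene in each library, in CPM per kilobase of gene length on a log axis, with controls in grey, ruxolitinib libraries in orange and a bar at each group mean. Ruxolitinib pool 3 lies nearest to the controls for Il2rb and Il2rg, and the Il7r points of the ruxolitinib group all lie above those of the controls.

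Il2rg, the shared gamma chain gene (chromosome X, 101264378 to 101268255, mm10), stood at 61.8, 63.9 and 125 CPM with ruxolitinib (pools 1, 2 and 3) and at 336, 360.3 and 142 CPM without (pools 4, 5 and 6). All treated libraries were below all controls, but control pool 6 was close to ruxolitinib pool 3. The means were 83.6 ± 36.0 and 279 ± 119.8 CPM (SD, n = 3 each). The gene fell 3.34-fold (log2 fold change -1.74 ± 0.40 SE, edgeR adjusted p = 0.00484), and relative to the CD8 T cell genes its value was 0.12 ± 0.57 (adjusted p = 0.854).

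Il2rb encodes the beta chain that IL-2 and IL-15 receptors share, and it had the most reads of the family (chromosome 15, 78479256 to 78495271). Its level was 354, 362 and 911 CPM with ruxolitinib and 1582, 1244 and 1055 CPM in the controls. The groups did not overlap, and pool 3 was again the treated library nearest to the controls. The means of 542 ± 319 and 1294 ± 267 CPM differed 2.39-fold (log2 fold change -1.25 ± 0.39, adjusted p = 0.0209). Without ruxolitinib pool 3 the log2 fold change was -1.86 (adjusted p = 0.00101), and the call was lost on leaving out pool 1 (adjusted p = 0.108), pool 2 (0.0862) or the control pool 4 (0.0641). Relative to the CD8 T cell genes the value turned to 0.49 ± 0.57 (adjusted p = 0.435). NK cells also carry this chain at high level. Of 5 NK cell markers, 4 (Ncr1, Klrb1c, Klra8 and Klri2) were too low to be tested, and the summed level of the list was 2.73 to 6.82 CPM with ruxolitinib and 19.0 to 59.0 CPM in controls, most of it from Klre1, which was called lower (-3.42 ± 0.50, adjusted p = 0.000466). The part of that list in the Il2rb result was not tested.

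Among the private alpha chains, Il15ra encodes the chain that holds IL-15 and presents it to neighbouring cells (chromosome 2, 11705290 to 11734317). It was at 4.75, 5.92 and 6.94 CPM with ruxolitinib and at 15.9, 15.5 and 13.6 CPM in controls. Both groups varied little, and they did not overlap. The means were 5.87 ± 1.10 and 15.0 ± 1.22 CPM, a 2.55-fold fall (log2 fold change -1.35 ± 0.26, adjusted p = 0.00170) that became 0.56 ± 0.63 relative to the CD8 T cell genes (adjusted p = 0.415). In that scaling the gene was called higher without ruxolitinib pool 3 (0.83, adjusted p = 0.0405).

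Il2ra encodes CD25, the alpha chain that raises the affinity for IL-2 on activated and regulatory T cells (chromosome 2, 11642807 to 11693193). It rested on 31 to 92 counts per library, 2.27, 4.48 and 4.42 CPM with ruxolitinib and 3.10, 6.01 and 3.55 CPM in controls. The groups overlapped, and the log2 fold change of -0.18 ± 0.41 did not pass (adjusted p = 0.732). The value was 1.71 ± 0.71 relative to the CD8 T cell genes (adjusted p = 0.0246), a call that was lost when pool 2 (adjusted p = 0.183) or any of the controls, pool 4 (0.142), 5 (0.0655) or 6 (0.0565), was left out. Its neighbour Il15ra begins 12096 bases further along the chromosome. Of 3 markers of regulatory and CD4 T cells, Cd4 rose from 6.37 ± 1.79 to 100.2 ± 14.9 CPM (log2 fold change 3.98 ± 0.27, adjusted p = 1.66e-05). Foxp3 (1.36 ± 0.60, adjusted p = 0.0790) and Ikzf2 (-0.41 ± 0.29, adjusted p = 0.251) did not pass, and relative to the CD8 T cell genes both were called higher (3.06 ± 0.88 and 1.55 ± 0.58). The summed level of the list was 121 to 152 CPM with ruxolitinib and 39.5 to 53.3 CPM in controls. Most of it came from Cd4 with ruxolitinib and from Ikzf2 in controls. The part of this list in the Il2ra and Il7r values was not tested.

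Il7r was the 1 receptor gene that rose. It encodes the IL-7 receptor alpha chain (CD127), which is high on naive and memory T cells and on early B cells and low on effector T cells, and which also forms the TSLP receptor (chromosome 15, 9505788 to 9530176). It was measured at 18.9, 12.7 and 9.85 CPM with ruxolitinib, and at 5.47, 6.53 and 6.28 CPM in controls. Here pool 3 was also nearest to the controls, yet the groups did not overlap. The means were 13.8 ± 4.65 and 6.10 ± 0.553 CPM, a 2.26-fold rise (log2 fold change 1.18 ± 0.30, adjusted p = 0.00814). Leaving out any 1 library gave values between 0.91 and 1.37, with adjusted p of at most 0.0413. The value was 3.29 ± 0.65 relative to the CD8 T cell genes (adjusted p = 1.75e-06, and 2.63 without ruxolitinib pool 1). Of 11 B cell genes 10 rose in the same libraries, with Cd79a at 51.8 ± 7.81 against 0.263 ± 0.236 CPM. Among early B cell genes of that list, Rag1 was at 1.53 ± 0.644 CPM against 0 and was called higher (7.56 ± 1.10, adjusted p = 0.000887). Vpreb3 was also called higher (8.44 ± 0.305 against 0.119 ± 0.0505 CPM, 6.04 ± 0.45, adjusted p = 2.04e-05). Vpreb1 overlapped between groups and did not pass (0.958 ± 0.374 against 0.599 ± 0.332 CPM, 0.67 ± 0.59, adjusted p = 0.353, and 2.73 ± 0.88 relative to the CD8 T cell genes). The part of the B cell genes in the Il7r result was not tested.

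Il4ra and Il21r lie side by side on chromosome 7 (125552120 to 125579474 and 125603429 to 125633570), with 23954 bases between them. Il4ra encodes the chain that IL-4 and IL-13 receptors share and is expressed by T cells, B cells and macrophages. It was at 34.1, 38.1 and 36.7 CPM with ruxolitinib and at 31.6, 32.5 and 12.9 CPM in controls. All treated libraries were above all controls, by little for control pools 4 and 5 and by more for pool 6. The log2 fold change of 0.50 ± 0.32 did not pass (adjusted p = 0.211), and it was 0.17 without control pool 6. Il4ra was called higher relative to the CD8 T cell genes (2.54 ± 0.60, adjusted p = 7.30e-05), and it stayed so without any 1 library (2.29 to 2.87).

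Il21r encodes the IL-21 receptor of T, B and NK cells. It was at 66.5, 71.1 and 120.4 CPM with ruxolitinib and at 136, 113 and 96.0 CPM in controls. The groups overlapped because ruxolitinib pool 3 exceeded control pools 5 and 6. Its log2 fold change was -0.42 ± 0.27 (adjusted p = 0.205), and without ruxolitinib pool 3 it was called lower (-0.75, adjusted p = 0.0262). The sign turned relative to the CD8 T cell genes (1.44 ± 0.58, adjusted p = 0.0202), and that call was lost on leaving out any single library except ruxolitinib pool 3 (adjusted p up to 0.120).

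Against the CD8 T cell genes, then, Il7r, Il4ra, Il2ra and Il21r were called higher and none was called lower. That scaling sets the median of all genes at 2.02, with 71.0% of genes called higher and 0.445% called lower. The median of the 7 receptor genes was 1.44 on that scale. Il7r and Il4ra were above the median of all genes and the other 5 below it. In reads per T cell gene read, all 3 ruxolitinib libraries exceeded all 3 controls for 5 receptor genes, as they did for 71.5% of all genes, and overlapped for Il2rg and Il15ra. Il2rb, as a ratio of its count to the geometric mean count of the 16 genes, was 3.44, 2.89 and 3.14 with ruxolitinib and 2.56, 2.01 and 2.19 in controls, and Il2rg was 0.599, 0.510 and 0.431 against 0.543, 0.582 and 0.294. Il7r was 0.184, 0.101 and 0.0339 against 0.00885, 0.0106 and 0.0130. The scaling takes it that the 16 genes themselves did not respond to the drug, which was not tested.

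**Figure D2:**
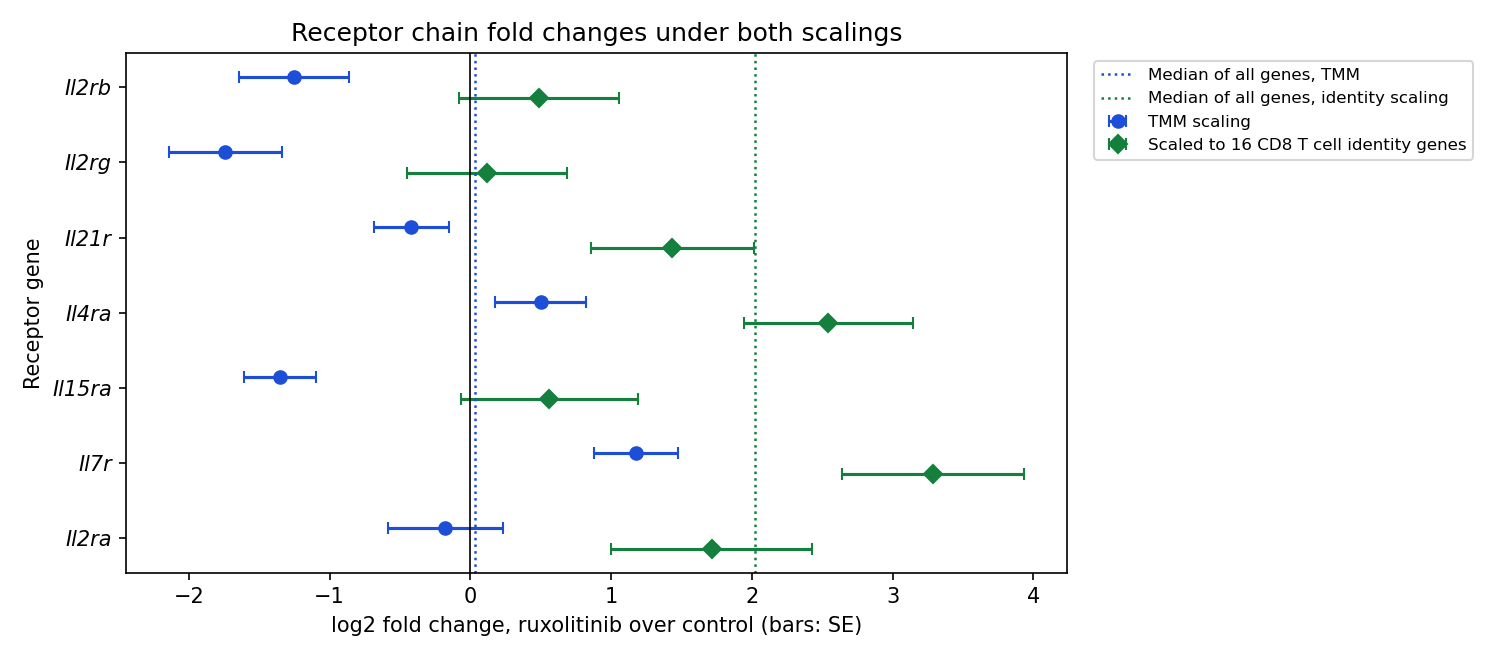
Log2 fold change of each receptor gene, ruxolitinib over control, after TMM scaling (blue circles) and relative to 16 CD8 T cell identity genes (green diamonds), with SE bars and dotted lines at the median of all genes under each scaling. Il7r and Il4ra are to the right of the median of all genes in both, while Il2rg, Il2rb, Il15ra, Il2ra and Il21r are left of it in both although their sign differs.

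Per kilobase of gene length, the order of the chains was steep. In controls Il2rb was at 302 ± 62.3 CPM per kilobase, Il2rg at 117 ± 50.2 and Il21r at 34.6 ± 6.06, followed by Il4ra at 4.28 ± 1.85, Il15ra at 3.38 ± 0.273, Il7r at 1.31 ± 0.119 and Il2ra at 0.739 ± 0.275. Neighbours in this order did not overlap between libraries except Il4ra and Il15ra. With ruxolitinib the order was Il2rb at 127 ± 74.4, Il2rg at 35.0 ± 15.1, Il21r at 25.9 ± 9.0, Il4ra at 6.05 ± 0.336, Il7r at 2.96 ± 0.996, Il15ra at 1.32 ± 0.247 and Il2ra at 0.652 ± 0.221. Here Il2rg and Il21r overlapped, and Il7r had passed Il15ra. Il2rb made up 58.7% to 72.0% of the summed length-scaled level of the 7 chains in all 6 libraries. Il7r made up 2.91%, 1.89% and 0.678% in ruxolitinib pools 1, 2 and 3 and 0.209% to 0.395% in controls.

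Ratios between chains within a library do not depend on how libraries are scaled. They can still differ with the mix of cell types, whose part was not tested. Ratios of other gene pairs were not computed for comparison. The log2 ratio of Il7r to Il2rb, in CPM per kilobase, was -4.34, -4.95 and -6.65 with ruxolitinib and -8.29, -7.69 and -7.51 in controls. The groups did not overlap, and the means differed by 2.51 (2.03 to 3.18 without any 1 library). An exact permutation test, two-sided, gave p = 0.1, which is the minimum for 3 against 3 libraries. The log2 ratio of Il15ra to Il2ra was 1.42, 0.76 and 1.01 with ruxolitinib and 2.71, 1.73 and 2.29 in controls, a difference of -1.18 between groups that again did not overlap (exact permutation p = 0.1). The log2 ratio of Il2rb to Il2rg was 1.67, 1.66 and 2.02 with ruxolitinib and 1.39, 0.94 and 2.05 in controls. These overlapped, and the difference of 0.32 was within the spread of the controls (exact permutation p = 0.5). Adjusted over these 3 ratios, the p-values were 0.15, 0.15 and 0.5.

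**Figure D3:**
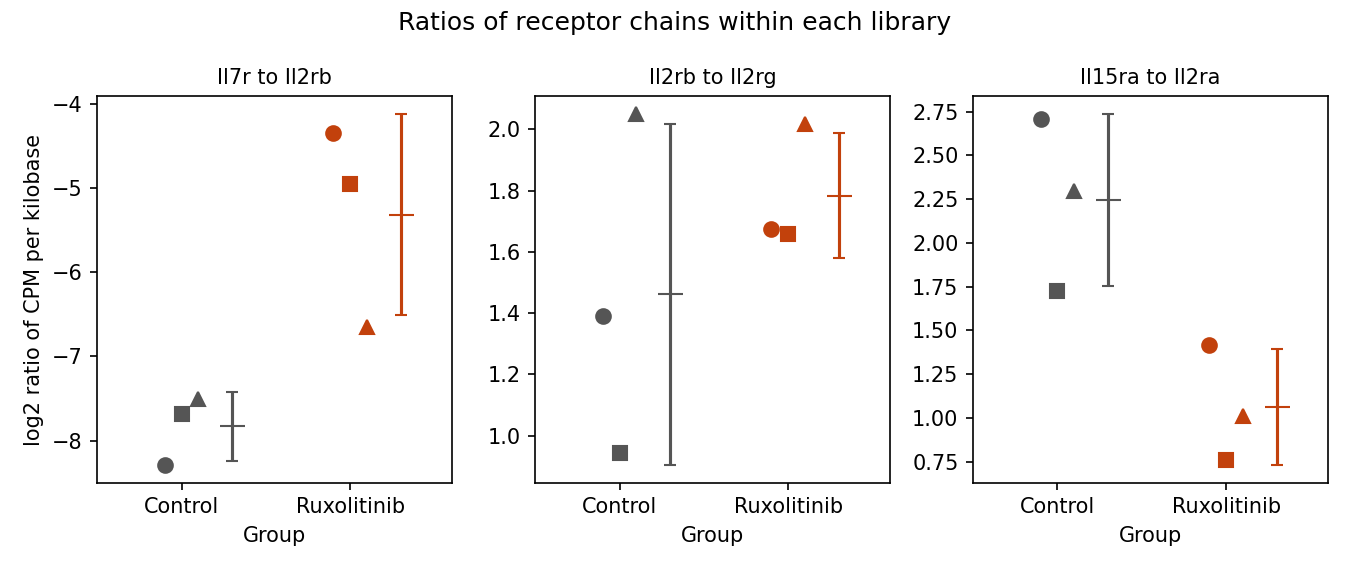
Log2 ratio of the length-scaled levels of a pair of receptor genes within each library, with the group mean and SD beside the points. The groups lie apart for Il7r to Il2rb and for Il15ra to Il2ra and overlap for Il2rb to Il2rg.

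The genes whose pattern over the 6 libraries was most like that of a receptor gene were found among 9511 expressed genes (9512 for Il2ra) as those with the smallest root mean square difference of centred log2 CPM. For Il2rb these were Cxcr6 (0.09), a chemokine receptor gene of effector and resident T cells, the T cell receptor complex gene Cd3e (0.10) and Ggt1 (0.14). For Il2rg they were Ifitm10 (0.13), the peptide transporter gene Tap1 (0.16) and Prr5 (0.19). Il15ra was matched most closely by Zbtb8os, the ribosomal protein gene Rpl5 and Mrm3 (all 0.04). Il7r was nearest to Rlf (0.07), Washc4 (0.11) and Zbtb34 (0.11), and Il21r to Saraf (0.05), Tmem260 and Gnptg (0.10 each). Poli, Med25 and Mad1l1 were nearest to Il4ra (0.06 to 0.08), and Chst10, Zswim7 and Hyls1 to Il2ra (0.18 to 0.21). With 6 libraries in 2 groups many genes share such a pattern, and the list is a description only.

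The nearest tested protein-coding genes on either side of the receptor genes changed in both directions after TMM scaling. Of all genes 55.2% were called in either direction. The neighbours of Il2rg rose while it fell: Foxo4, 3504 bases away, with a log2 fold change of 2.70 ± 0.34 (adjusted p = 0.000230), and the Mediator subunit gene Med12, 5774 bases away, with 4.21 ± 0.24 (adjusted p = 1.59e-05). Both neighbours of Il2rb, Tmprss6 (-2.75 ± 0.32) and C1qtnf6 (-1.72 ± 0.37), fell with it. The nearest tested genes to Il7r lay further off. Lmbrd2, 303304 bases away, rose (2.17 ± 0.33), and Dnajc21, 916579 bases away, fell (-0.68 ± 0.22). Nsmce1, 60523 bases from Il4ra, fell (-1.16 ± 0.23). Rbm17 beside Il2ra (-0.05 ± 0.27), Fbxo18 beside Il15ra (0.07 ± 0.23) and Gtf3c1 beside Il21r (-0.07 ± 0.22) did not pass. No gene of the table that overlaps a receptor gene on either strand had more than 1 count in a library. Whether reads were counted by strand is unknown here, and the effect of that choice was not tested.

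The wider pathway was described with 51 further genes in lists by role, of which 45 were tested. After TMM scaling 11 were called higher, 13 lower and 21 did not pass (median log2 fold change -0.21), shares close to the 29.9% and 25.3% of all genes. Relative to the CD8 T cell genes 30 were called higher and none lower, against 71.0% and 0.445% of all genes. Each fall in the next paragraphs is therefore a fall after TMM scaling that did not hold relative to the CD8 T cell genes. The lowered count was 8 without ruxolitinib pool 1 and also 8 without ruxolitinib pool 2.

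Of the 8 ligand genes only 3 could be tested. Il15 rose from 1.55 ± 0.496 to 4.43 ± 1.04 CPM (log2 fold change 1.52 ± 0.41, adjusted p = 0.0107), with all treated libraries (3.41 to 5.48 CPM) above all controls (0.995 to 2.0 CPM), in the opposite direction to its receptor gene Il15ra after TMM scaling. Macrophages and dendritic cells are known sources of IL-15, and the part of the macrophage genes given above was not tested. Il21 (-0.22 ± 0.41, adjusted p = 0.665) and Il7 (-0.24 ± 0.76, adjusted p = 0.802) did not pass. In the other scaling Il21 was called higher (1.6 ± 0.74, adjusted p = 0.0425) and Il7 turned to 1.40 ± 0.87 (adjusted p = 0.134). Il2 had 0 to 4 counts with ruxolitinib and 6 to 11 in controls, and Il9 had none in any library. Of 3 further receptor chains, Crlf2, which pairs with the IL-7 receptor alpha chain to bind TSLP, fell from 167 ± 51.0 to 83.4 ± 19.6 CPM (-1.0 ± 0.28, adjusted p = 0.0135, lost without ruxolitinib pool 1 at 0.0748, ruxolitinib pool 2 at 0.0524 or control pool 5 at 0.0507, and 0.93 ± 0.57 relative to the CD8 T cell genes). Il13ra1, which pairs with the IL-4 receptor alpha chain on myeloid cells, rose from 1.01 ± 0.644 to 13.5 ± 2.99 CPM (3.73 ± 0.45, adjusted p = 0.000173, and 4.34 without control pool 6). Il9r was too low to test.

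Among the kinase and STAT genes, Stat3 fell, Stat6 rose and 4 did not pass. Stat3, which carries IL-21 signals, was at 144 to 231 against 359 to 375 CPM (-1.04 ± 0.24, adjusted p = 0.00461, and 0.85 ± 0.57 relative to the CD8 T cell genes). Stat6, the IL-4 mediator, rose from 75.0 ± 13.1 to 125 ± 9.75 CPM (0.74 ± 0.20, adjusted p = 0.0120). Jak3, the partner of the gamma chain, was at 76.6, 76.8 and 169 CPM with ruxolitinib and 285, 253 and 115 CPM in controls, a pattern in which ruxolitinib pool 3 and control pool 6 crossed. Its log2 fold change of -1.02 ± 0.40 did not pass (adjusted p = 0.0545). It passed with DESeq2 (adjusted p = 0.0207), limma-voom (0.0499), without ruxolitinib pool 3 (-1.51, 0.0117) and without control pool 6 (-1.33, 0.0106), and the value was 0.81 ± 0.57 relative to the CD8 T cell genes. Jak1 (0.25 ± 0.21, adjusted p = 0.345), Stat5a (-0.08 ± 0.27, adjusted p = 0.816) and Stat5b (-0.44 ± 0.21, adjusted p = 0.0997) did not pass either. In the other scaling these 3 were called higher (2.22, 1.87 and 1.5). Jak1, Jak3, Stat5a and Stat5b are named after their values were seen.

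Among 7 adaptor genes, which link the receptors to the RAS and PI3-kinase routes, 5 rose, Pik3cd fell (-0.99 ± 0.28, adjusted p = 0.0147, and 0.88 ± 0.57 relative to the CD8 T cell genes) and Grb2 did not pass (0.30 ± 0.19, adjusted p = 0.206, and called higher in that scaling at 2.32 ± 0.59), the last 2 named after their values were seen. Over all genes tested 29.9% were called higher and 25.3% lower. The largest changes were in Irs2 (0.451 ± 0.283 to 18.9 ± 7.23 CPM, log2 fold change 5.33 ± 0.52) and Gab2 (3.89 ± 1.08 to 41.3 ± 13.9 CPM, 3.40 ± 0.33), and Pik3r1 (1.00 ± 0.20) and Shc1 (1.30 ± 0.30) rose by less. Sos1, also named after its values were seen, was barely past the threshold (0.65 ± 0.25, adjusted p = 0.0499). Myeloid and erythroid cells also use these adaptors, and the part of their genes, given above, was not tested.

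Of 6 feedback genes 3 fell and none rose, where 25.3% of all genes were called lower and 29.9% higher. Socs1, an inhibitor of JAK kinases, was at 9.79, 12.8 and 24.2 CPM with ruxolitinib and at 94.1, 81.4 and 64.6 CPM in controls (-2.36 ± 0.34, adjusted p = 0.000390). Cish, a target and inhibitor of STAT5 signalling, was at 3.29, 8.35 and 11.7 CPM against 42.0, 36.7 and 15.6 CPM (-2.01 ± 0.48, adjusted p = 0.00598). The phosphatase gene Ptpn2 fell from 55.5 ± 5.77 to 23.9 ± 2.87 CPM (-1.22 ± 0.20, adjusted p = 0.000781). In each of the 3 genes the treated libraries were all below the controls, as for 30.3% of all genes tested. None of these calls held relative to the CD8 T cell genes (Socs1 -0.58 ± 0.58, Cish -0.20 ± 0.60, Ptpn2 0.74 ± 0.57). The uncalled genes are named after their values were seen. Socs2 (0.63 ± 0.33) and Ptpn6 (0.78 ± 0.32, adjusted p = 0.0599) had all treated libraries above the controls, as for 35.7% of all genes. Socs3 overlapped (-0.47 ± 0.29). Relative to the CD8 T cell genes Socs2, Ptpn6 and Socs3 were called higher (2.61, 2.89 and 1.39).

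Of 10 known STAT5 target genes 3 rose, 3 fell and 4 did not pass. These shares are close to the 29.9% and 25.3% of all genes called higher and lower. Pim2, a survival kinase gene, fell from 128 ± 23.9 to 21.7 ± 8.75 CPM (-2.56 ± 0.31, adjusted p = 0.000183, and -0.73 ± 0.57 relative to the CD8 T cell genes). Bcl2, the survival gene that IL-7 and IL-15 maintain in T cells, fell from 54.6 ± 11.9 to 14.8 ± 2.46 CPM (-1.88 ± 0.24, adjusted p = 0.000242, and 0.06 ± 0.58 in that scaling). Bcl2l1, a related survival gene that red cell precursors use, rose from 64.0 ± 16.6 to 365 ± 126 CPM (2.51 ± 0.32, adjusted p = 0.000237), and Bcl6, a gene that STAT5 represses, rose from 3.00 ± 0.213 to 19.8 ± 6.10 CPM (2.72 ± 0.30, adjusted p = 0.000106). Erythroid cells are known to express Bcl2l1 and B cells Bcl6. Markers of both were higher in the same libraries, and their part was not tested.

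Of 10 genes for transcription factors that act on the receptor genes 3 fell and none rose. Over all genes 25.3% were called lower, close to the share in this list, and 29.9% higher. Tbx21, which encodes T-bet, an activator of Il2rb, was at 10.6, 13.6 and 39.2 CPM with ruxolitinib and 104, 114 and 36.6 CPM in controls (-2.0 ± 0.54, adjusted p = 0.0111). The groups overlapped through ruxolitinib pool 3 and control pool 6. The call was lost without ruxolitinib pool 1 (adjusted p = 0.0592), without ruxolitinib pool 2 (0.0522) and with no filter (0.119), and the value was -2.82 without ruxolitinib pool 3. Ets1 fell from 587 ± 58.2 to 288 ± 121 CPM (-1.02 ± 0.30, adjusted p = 0.0170), and its call was lost without ruxolitinib pool 1 (0.0993) or 2 (0.0674). Runx3, a factor of CD8 T cells, was barely past the threshold (-0.80 ± 0.31, adjusted p = 0.0493), and the call was lost without any 1 library other than ruxolitinib pool 3 (adjusted p up to 0.223), with upper-quartile (0.0630) or total-count scaling (0.115), with the stricter filter (0.0510) and with haemoglobin genes removed (0.0506). Relative to the CD8 T cell genes the values were -0.30 ± 0.57 for Tbx21, 0.78 ± 0.57 for Ets1 and 0.99 ± 0.57 for Runx3. Foxo1, an activator of Il7r, was at 35.2 ± 9.48 with ruxolitinib and 28.2 ± 2.54 CPM in controls (0.32 ± 0.24, adjusted p = 0.283), and was singled out after its values were seen, as was its list mate Gfi1, a repressor of Il7r (-0.21 ± 0.34, adjusted p = 0.616). Gabpa of the same list, also named after its values were seen, moved opposite to Foxo1 (-0.44 ± 0.18, adjusted p = 0.0629). All its treated libraries were below all controls, as for 30.3% of all genes tested. Foxo1, Gfi1 and Gabpa were called higher relative to the CD8 T cell genes (2.28 ± 0.60, 1.67 ± 0.60 and 1.51 ± 0.58).

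**Figure D4:**
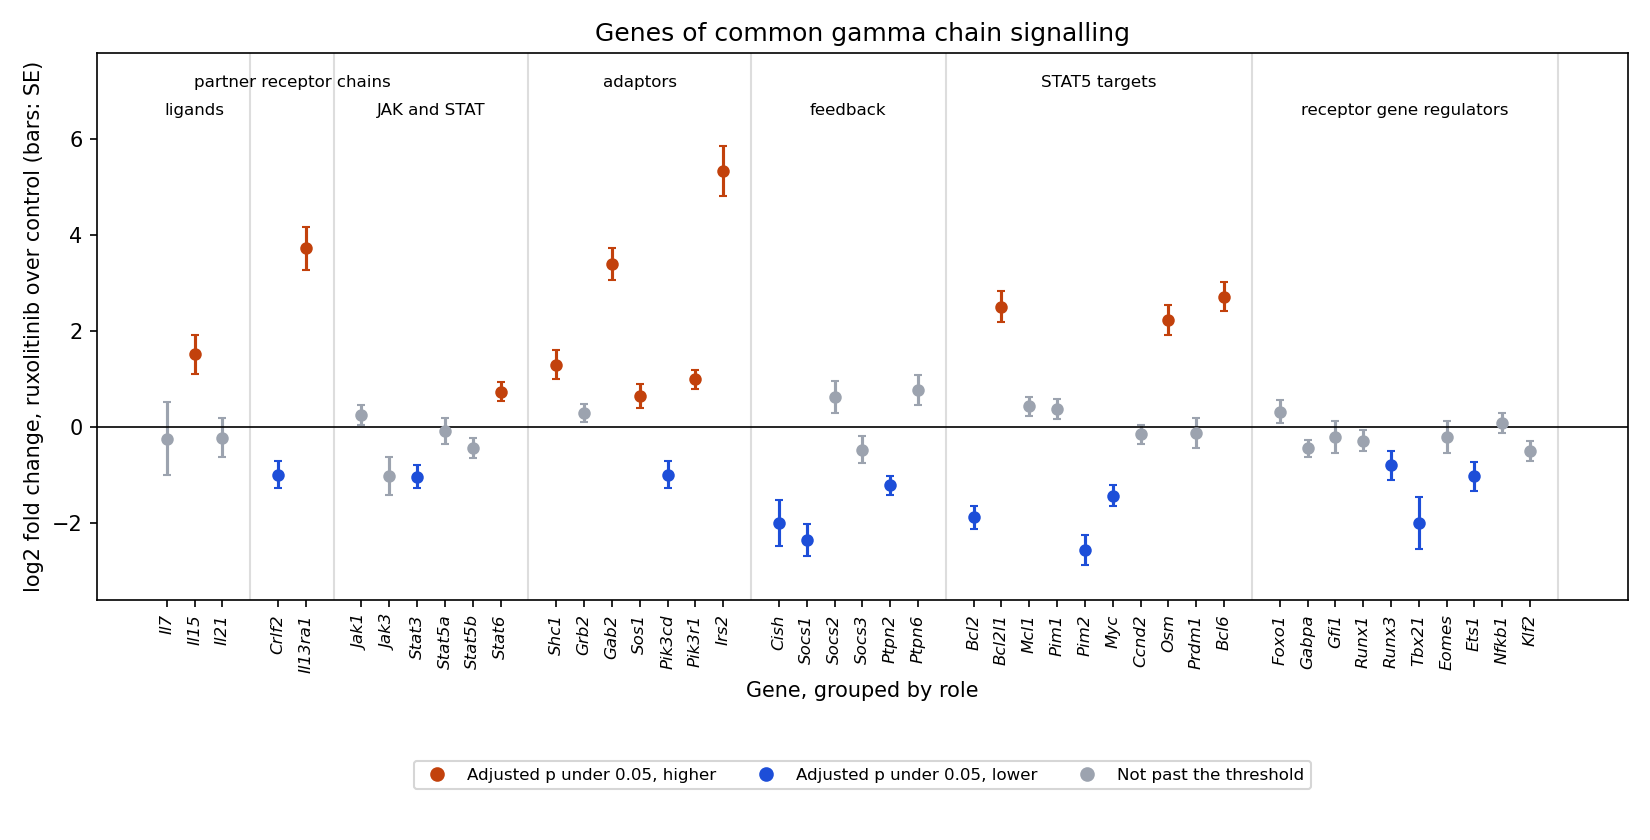
Log2 fold change after TMM scaling, ruxolitinib over control, of tested genes of the pathway by role, with SE bars, orange for higher, blue for lower and grey for genes not past the threshold. Adaptor genes lie mostly above 0 and the called feedback and regulator genes lie below it, and none of the genes in blue was called lower relative to the CD8 T cell genes.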

How the data were processed

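RNA of 6 pools was sequenced after library preparation with NEBNext Ultra II reagents, per the labels' protocols. Alignment tool and build are HISAT2 2.0.5 and mm10, per the submitters' processing notes, and the counting program and its strand setting stay unstated there. The authors deposited raw read counts per gene, with a gene length that for all 7 receptor genes equals the union of their exons in GENCODE M21. The quasi-likelihood test of edgeR 4.0.16 (R 4.3.3) was run on them after filterByExpr and TMM scaling, with robust dispersion fits and no covariate. A call is a Benjamini-Hochberg adjusted p under 0.05 over the 13480 genes kept. The SE of a log2 fold change is its size over the square root of F. Ratios between genes used a pseudocount of 0.5 counts. Alternatives were RLE, upper-quartile and total-count scaling, no filter, a minimum of 1 CPM in any 3 libraries, limma-voom (limma 3.58.1), DESeq2 1.42.0, removal of haemoglobin genes, scaling to the geometric mean of 16 CD8 T cell identity genes and leaving out each pool. Repeats of that scaling without each pool and with 4 CD3 genes, that scaling for other listed genes, and all alternatives for pathway genes, were added after the data were seen. Scripts were tested on simulated counts. Pathway genes named are up to 4 called genes per list by smallest p, and all tested genes of lists of up to 3. The 3 genes most alike to each receptor gene needed an established symbol and a mean of at least 5 CPM. Receptor genes and lists were chosen with earlier results of these data known. Libraries are pools of separate mice, so p-values measure the spread between pools. Results for a few listed genes are not reported here.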

Additional observations from a re-analysis of the deposited data

How the results depend on the processing

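No paired analysis was possible because the pools carry different numbers in each group (1 to 3 and 4 to 6). Scaling to the CD8 T cell identity genes moved the genes called higher to 9565 and lower to 60, and the receptor genes to 4 higher and 0 lower. Among the receptor genes and the pathway genes run under all alternatives, it turned the sign of Il2rg (0.12), Il2ra (1.71), Il2rb (0.49), Il15ra (0.56), Il21r (1.44), Il7 (1.40), Il21 (1.6), Crlf2 (0.93), Stat3 (0.85), Jak3 (0.81), Stat5a (1.87), Stat5b (1.5), Ptpn2 (0.74), Bcl2 (0.064), Ets1 (0.78) and Runx3 (0.99), all on the log2 scale. Of these Il2ra, Il21r, Il21, Stat5a and Stat5b passed the test there. Other listed genes turned too, among them Pik3cd (0.88), which did not pass, and Gfi1 (1.67) and Ikzf2 (1.55), which did. That scaling divides by genes that were themselves lower. Under the 8 other planned scalings, filters and tools 1 receptor gene was higher and 3 were lower, as in the report. Without any 1 pool 1 was higher and 2 to 4 were lower. Leaving out 1 pool also turned the sign of uncalled values: Il2ra ranged from -0.35 to 0.17, Il7 from -0.86 to 0.52, Il21 from -0.54 to 0.032 and Stat5a from -0.31 to 0.12, and Il2rg relative to the CD8 T cell genes from -0.13 to 0.29. The 4 receptor genes called higher in that scaling became 2 to 5 without 1 pool (2 without ruxolitinib pool 2 or any 1 control pool) and were 4 with the CD3 genes as reference. The 3 ratios between chains kept their sign under all alternatives run. Il2ra rests on 31 to 92 counts a library, which limits its precision.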
